A study of Homo sapiens with 8 samples.

Results

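The EGF receptor family and its ligands were followed here as 10 genes in A549 cells, an established line from a human lung carcinoma: the receptors EGFR, ERBB2 and ERBB3, the ligands HBEGF, AREG, EREG, TGFA, NRG1 and BTC, and the receptor inhibitor ERRFI1. These symbols were matched to the array through the transcript given for each probe, and all 10 were found among the 19056 genes with a probe and among the 19046 genes tested. The cells received EEDS, an ethanol extract of *Descurainia sophia* seeds, at 1.25, 5 or 20 μg/mL, or helveticoside, a cardiac glycoside (an inhibitor of the sodium pump) that the study detected in the extract, at 3.75, 15 or 60 nM. Each agent had a vehicle control of its own, so there were 8 arrays in 2 series of 4. Every array held RNA pooled from 3 cultures and every dose had 1 array, so values carry no replicate error and single doses were not tested. The exposure was 24 h by the study's methods and 48 h by the labels. The agent and the series cannot be told apart, because all arrays of an agent belong to the same series. In RNA from a whole dish, fewer cells that express a gene and less of its RNA per cell cannot be told apart either.

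The arrays had a single dye. A level is the log2 of the scanner software's background-subtracted signal after quantile normalization of the 8 arrays, and a log2 ratio is a treated level minus that of the vehicle control of its series. Across the 8 arrays the probe spots had a median signal of 182 to 278 over a local background of 27 to 34, and 54.5% to 64.9% of the probes were called well above background by the software. Of the members, 8 were well above background on all 8 arrays. HBEGF was not on the vehicle controls and at 3.75 nM helveticoside, and BTC was so on the EEDS vehicle control alone. The 5 epithelial markers examined (KRT8, KRT18, KRT19, EPCAM and CDH1) were well above background on every array. Their summed level was 18.9 on the EEDS control and 18.3 at 20 μg/mL, and 18.6 on the helveticoside control and 18.0 at 60 nM. Of 9 markers of blood, endothelium and fibroblasts, 3 (PTPRC, CDH5 and COL1A1) were well above background on all arrays, the summed level of the list ran from 9.00 to 9.87, and none of them passed the dose-trend test. At 15 nM helveticoside 5 of the 9 were well above background. COL3A1 had a log2 ratio of 3.59 there, against a dim control, and is named after its values were seen. A straight line over the doses is a poor test for a rise on 1 array at a middle dose. The part of the epithelial markers in the results below was not tested.

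The receptors of this family are tyrosine kinases of the cell surface that pair with each other when a ligand binds, and they pass the signal on through the RAS-ERK and PI3-kinase cascades. The ligands are made as membrane proteins and are cut free by metalloproteases of the ADAM family, and several of them are themselves transcribed in response to ERK signalling. In airway and lung epithelium the family is known for its part in growth and in repair after injury, and EGFR is a familiar drug target in lung carcinoma.

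EGFR and the ligands HBEGF, AREG and EREG were the members that stood more than 2-fold above the vehicle control at the top dose of each agent. At the lowest dose of EEDS, 3 of 10 members were past 2-fold upwards and 1 downwards, where 4.21% and 3.71% of the genes tested were. At 5 μg/mL, 4 were higher and 2 lower, against 7.35% and 8.53% of all genes. At 20 μg/mL the members again gave 4 and 2, against 13.4% and 14.6%. With helveticoside, 1 member was higher and none lower at 3.75 nM, against 3.4% and 4.34% of all genes. At 15 nM, 3 were higher and 1 lower, against 7.13% and 8.11%, and at 60 nM 4 were higher and 1 lower, against 10.9% and 12.9%. The members counted as lower by their signals were ERBB3 and BTC with EEDS and BTC with helveticoside. BTC was not well above background on the treated arrays, so that a change past 2-fold is shown for it by its bound at 1.25 μg/mL alone, and the counts without it are 1 lower at 5 and at 20 μg/mL and none at any helveticoside dose. The share of higher genes among all genes past 2-fold depended on the scaling in the EEDS series. At 1.25 μg/mL it was 53.2% (802 higher, 706 lower) after quantile normalization and 38.3% (741 higher, 1196 lower) after scaling each array to its 75th percentile. At 5 μg/mL it was 46.3% and 38.6%, and at 20 μg/mL 47.8% and 39.3%, where 3705 genes in place of 2781 were lower.

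**Figure D1:**
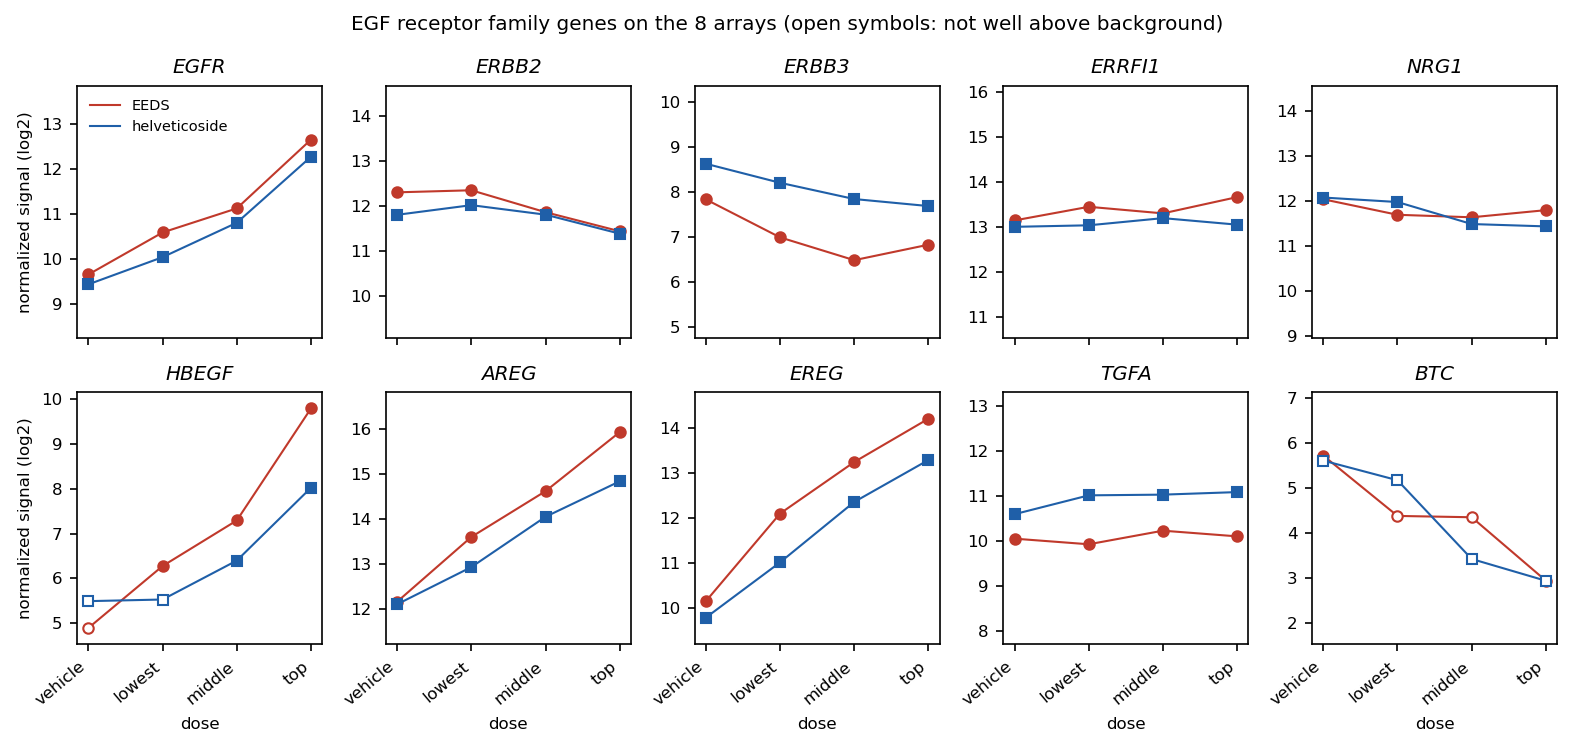
Normalized log2 signal of the 10 members (y axis) on the vehicle control and at the lowest, middle and top dose (x axis) of EEDS (red circles) and helveticoside (blue squares), 1 array per point, with open symbols where the probe was not well above background. EGFR, AREG and EREG climb at every dose step of both agents, HBEGF starts in the background, and the ERRFI1 levels stay between 13.01 and 13.67. Each panel has an axis of its own, and levels of different probes are not comparable.

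Dose trends were tested by fitting, for each gene, a straight line of the level on the dose step (vehicle control, lowest, middle and top dose) in each series with limma, which gave a slope in log2 units per step. The scatter of the 8 arrays about these lines stands in for the missing replicates, with 4 residual degrees of freedom, and p-values were adjusted over all 19046 genes. For EEDS, 4 members rose (EGFR, HBEGF, AREG and EREG) and 1 fell (BTC), where 7.27% and 7.9% of all genes did. For helveticoside, 3 members rose (EGFR, AREG and EREG) and 1 fell (BTC), against 5.48% and 5.83%. These calls need all 8 arrays: with any treated dose left out of each series, or with a series fitted alone, limma called 0 of 19046 genes for either agent, while 3262 to 5403 genes and 5 to 7 of the 10 members had an unadjusted p under 0.05.

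The promoters of the 4 members that stood higher at the top doses are shown here for the sequence in front of genes that moved together. RefSeq (GRCh38.p14) gave 10 start-site entries for 8 members, without ERBB3 and NRG1. Each sequence is the 250 bases before the start site, 5′ to 3′ on the strand of the gene, and capitals mark matches on either strand to the CRE (TGACGTCA, the site of CREB), the AP-1 site (TGAGTCA, the site of FOS and JUN dimers), the GC box (GGGCGG), the EGR site (GCGGGGGCG) or the CArG box. EGFR lies at chr7:55018767-55019016 on the plus strand, AREG at chr4:74444886-74445135 on the plus strand, EREG at chr4:74364895-74365144 on the plus strand, and HBEGF at chr5:140346604-140346853 on the minus strand.
EGFR: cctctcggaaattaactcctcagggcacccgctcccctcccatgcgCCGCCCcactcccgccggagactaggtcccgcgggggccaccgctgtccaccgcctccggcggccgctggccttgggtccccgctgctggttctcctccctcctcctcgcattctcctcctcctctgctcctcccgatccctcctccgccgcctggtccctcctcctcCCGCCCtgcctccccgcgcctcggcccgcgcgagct
AREG: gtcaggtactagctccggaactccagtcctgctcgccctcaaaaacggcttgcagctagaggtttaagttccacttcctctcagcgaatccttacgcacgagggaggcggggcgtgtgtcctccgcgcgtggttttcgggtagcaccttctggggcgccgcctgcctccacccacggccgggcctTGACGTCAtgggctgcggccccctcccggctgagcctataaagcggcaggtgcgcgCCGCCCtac
EREG: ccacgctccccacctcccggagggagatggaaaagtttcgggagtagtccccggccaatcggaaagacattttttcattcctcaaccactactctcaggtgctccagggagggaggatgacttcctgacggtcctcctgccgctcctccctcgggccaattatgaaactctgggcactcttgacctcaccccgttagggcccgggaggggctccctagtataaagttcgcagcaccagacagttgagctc
HBEGF: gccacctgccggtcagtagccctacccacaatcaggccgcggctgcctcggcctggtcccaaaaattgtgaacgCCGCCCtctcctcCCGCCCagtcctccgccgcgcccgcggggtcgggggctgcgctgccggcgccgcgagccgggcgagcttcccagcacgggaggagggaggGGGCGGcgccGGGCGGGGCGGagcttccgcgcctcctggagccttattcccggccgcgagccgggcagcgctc
AREG has a CRE 65 to 58 bases before its start and 1 GC box. EGFR has 2 GC boxes, HBEGF has 5, of which 2 share a base, and EREG has no match to any of the 5 motifs. The second start-site entry of EGFR, at chr7:55109589-55109838 on the plus strand, has 2 AP-1 sites. Among 35116 promoters of this length, 1.65% held a CRE, 4.20% an AP-1 site, 42.6% a GC box, 4.72% an EGR site and 1.16% a CArG box. A match is a description of the letters and not a binding site.

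Among the receptors, EGFR rose with both agents. Its main probe, which is printed 10 times on the array, had a level of 9.65 on the EEDS control and of 10.58, 11.12 and 12.65 at 1.25, 5 and 20 μg/mL. The helveticoside control had 9.43, and 3.75, 15 and 60 nM had 10.03, 10.80 and 12.27. Each dose of an agent was above the dose before it, the step to the top dose was the steepest (1.53 and 1.47 on the log2 scale), and the top doses were 7.99-fold and 7.14-fold above their controls. The slope was 0.95 ± 0.12 (SE) per step for EEDS (adjusted p = 0.0157) and 0.93 ± 0.12 for helveticoside (adjusted p = 0.0201). The SD over the 9 to 10 spots of this probe was 0.0255 to 0.0588 on the log2 scale, which covers the spread within an array and not that between cultures.

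The 3 EGFR probes differed in the size of the rise. The main probe belongs to NM_005228, the transcript of the full-length receptor, and the other probes to NM_201282 and NM_201283, transcripts of short forms that lack the kinase. These are the array's annotations of the probes. Where on the transcripts the probes lie, and whether they tell them apart, was not examined. At 20 μg/mL EEDS the log2 ratios were 2.998 for the main probe, 2.02 for the probe of NM_201282 and 0.93 for that of NM_201283. At 60 nM helveticoside they were 2.84, 1.86 and 1.43. At the middle doses the 3 probes were closer, from 1.18 to 1.47 with EEDS and from 0.96 to 1.39 with helveticoside, and the probe of NM_201283 gave 1.18 at 5 μg/mL and 0.93 at 20 μg/mL. All of them were well above background on every array, but with 1 array per dose the difference between them has no test, and the mean over the probes put the top-dose log2 ratio of the gene at 1.98 for EEDS and 2.04 for helveticoside.

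ERBB2, the receptor that binds no ligand itself and pairs with the others, did not pass the test over all genes. Its level was 12.31 on the EEDS control and 12.35, 11.87 and 11.44 at the rising doses, and 11.81 on the helveticoside control and then 12.02, 11.81 and 11.39. The top dose was the lowest of its series for each agent, with log2 ratios of -0.87 and -0.42. The slope was -0.31 ± 0.088 for EEDS (adjusted p = 0.0715) and -0.15 ± 0.088 for helveticoside (adjusted p = 0.348). The EEDS slope passed the test when only genes well above background on every array were fitted. The vehicle controls themselves differed by 0.50 for this gene, where the SD of that difference was 0.481 over 11494 genes that every array measured well above background.

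ERBB3, whose kinase is weak and which signals mainly as the partner of ERBB2, has 3 probes that do not give the same picture. The brightest belongs to NM_001005915, the transcript of a short secreted form, and had levels of 7.84, 7.00, 6.49 and 6.84 in the EEDS series and of 8.64, 8.21, 7.85 and 7.70 in the helveticoside series, each from the control to the top dose. Its log2 ratios at the top doses were -1.01 and -0.94, and its slopes, -0.35 ± 0.13 (adjusted p = 0.123) and -0.32 ± 0.13 (adjusted p = 0.171), did not pass the test. A probe of NM_001982, the full-length receptor, had 7.61 on the EEDS control and 7.39, 5.13 and 5.00 at its doses, and 7.70 on the helveticoside control and then 7.34, 5.66 and 3.26. It was not well above background at either top dose. Its signal there was 6.09-fold lower with EEDS, from the dim array's own signal, and at least 4.69-fold lower with helveticoside. The dim array counted with its own signal or with its lowest signal well above background, whichever was higher, and only the latter gives a bound. The other probe annotated to NM_001982 was well above background on no array. With the mean of the probes in place of the brightest, the gene's slopes were -0.68 and -0.91 and passed the test for both agents. This mean takes in the dim top-dose values of the first NM_001982 probe, and it leaves out the probe that was well above background on no array. The helveticoside control was 0.79 above the EEDS control for the brightest probe, and with the controls exchanged the top-dose log2 ratios were -1.80 and -0.15.

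**Figure D2:**
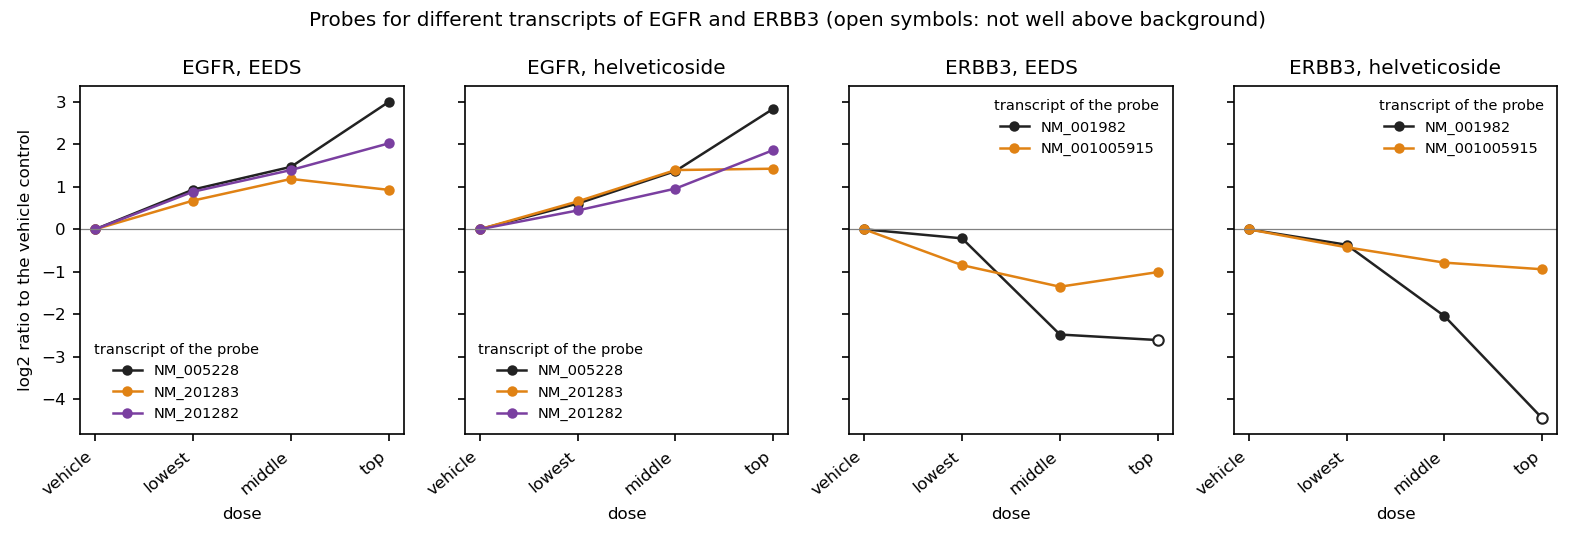
Log2 ratio to the vehicle control (y axis) by dose (x axis) for each probe of EGFR and ERBB3 that was well above background on any array, 1 array per point, with open symbols where the treated array was not well above background. The EGFR probe annotated to NM_005228 ends highest, at 2.998 and 2.84, and the ERBB3 probe annotated to NM_001982 ends below that of NM_001005915.

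HBEGF, a ligand that binds EGFR and heparan sulfate, came out of the background. Its level was 4.90 on the EEDS control, not well above background, and 6.28, 7.29 and 9.78 at 1.25, 5 and 20 μg/mL. In the helveticoside series it was 5.50 on the control and 5.53 at 3.75 nM, neither of them well above background, and then 6.40 and 8.02. Against the control's own dim signal, the EEDS doses were 2.60-fold, 5.24-fold and 29.4-fold higher, which is not a lower bound. With the control raised to its lowest signal well above background, 15 and 60 nM helveticoside were at least 1.80-fold and 5.52-fold higher. These folds hold for the main processing only. The authors' processed values gave top-dose log2 ratios of 4.44 and 1.31. The slope was 1.57 ± 0.21 for EEDS (adjusted p = 0.0163) and 0.84 ± 0.21 for helveticoside (adjusted p = 0.0597), and both rest on controls at background. From the signal as scanned, without subtraction of the background, the top-dose log2 ratios were 2.97 and 1.47.

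AREG, which encodes amphiregulin, a ligand of EGFR, had the trend with the least scatter of the family. Its level was 12.16 on the EEDS control and 13.60, 14.62 and 15.93 at its doses. The helveticoside series gave 12.10, 12.93, 14.05 and 14.84. The controls differed by 0.06 only, every dose step added between 0.79 and 1.44, and the top doses were 13.6-fold and 6.65-fold above their controls. The slope was 1.23 ± 0.053 for EEDS (adjusted p = 0.00725) and 0.93 ± 0.053 for helveticoside (adjusted p = 0.0148). A second probe of the same transcript gave log2 ratios of 3.44 and 2.67 at the top doses, beside 3.77 and 2.73 for the first.

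EREG, which encodes epiregulin, a ligand of EGFR and ERBB4, had the widest change among the members well above background on all arrays. Its level was 10.15 on the EEDS control and 12.10, 13.24 and 14.21 at the doses. With helveticoside it was 9.78, 11.01, 12.36 and 13.29. EREG was the member already more than 2-fold higher at 3.75 nM, with a log2 ratio of 1.23, and the top doses were 16.6-fold and 11.3-fold above their controls. The slope was 1.33 ± 0.11 for EEDS (adjusted p = 0.0132) and 1.19 ± 0.11 for helveticoside (adjusted p = 0.0167). Its steps grew smaller with EEDS, from 1.95 to 1.15 and 0.96, while those of HBEGF and of the main EGFR probe were largest at the end. The other EGFR probes did not share this with EEDS. Their log2 ratios were 0.88, 1.39 and 2.02 for the probe of NM_201282, and 0.67, 1.18 and 0.93 for that of NM_201283.

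TGFA, another ligand of EGFR, and NRG1, which encodes neuregulins, the ligands of ERBB3 and ERBB4, did not pass the test with either agent. TGFA levels ran from 9.93 to 10.23 in the EEDS series and from 10.59 to 11.09 in the helveticoside series. The controls differed by 0.54, as much as the largest log2 ratio of the gene (0.49 at 60 nM), and a second TGFA probe was well above background on no array. NRG1 levels ran from 11.63 to 12.03 with EEDS and from 11.43 to 12.07 with helveticoside. Every treated array was below its control, by 0.24 to 0.40 and by 0.10 to 0.64, with a slope of -0.24 ± 0.070 for helveticoside (adjusted p = 0.0865), and a second probe gave -0.13 and -0.65 at the top doses.

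BTC, which encodes betacellulin, a ligand of EGFR and ERBB4, fell from a level close to background. Its level was 5.72 on the EEDS control, where it was well above background, and 4.38, 4.35 and 2.94 at the doses, where it was not. In the helveticoside series it was 5.61, 5.18, 3.43 and 2.94, and no array was well above background. The EEDS doses were at least 2.07-fold, 1.95-fold and 1.89-fold below the control, in the order of the doses, and no fold can be given for helveticoside. The fitted slopes, -0.84 ± 0.17 (adjusted p = 0.0340) and -0.98 ± 0.17 (adjusted p = 0.0297), passed the test but rest on values in the background, and BTC drops out where only genes measured well above background on every array are tested.

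EREG, AREG and BTC are neighbours on chromosome 4. In the RefSeq annotation the protein-coding genes run MTHFD2L, EPGN, EREG, AREG, BTC and PARM1. EREG and AREG, side by side, rose together, and the fitted slopes of BTC next to them had the opposite sign. EPGN, the ligand gene on the other side of EREG, was well above background on no array.

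ERRFI1, an inhibitor that binds the EGFR kinase and is itself induced by EGFR signalling, moved little. Its level was 13.15 on the EEDS control and 13.45, 13.31 and 13.67 at the doses, and 13.01, 13.04, 13.20 and 13.06 with helveticoside. The largest log2 ratio was 0.52 at 20 μg/mL. The slope was 0.14 ± 0.058 for EEDS (adjusted p = 0.161) and 0.03 ± 0.058 for helveticoside (adjusted p = 0.843).

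The doses of the agents are in different units, so only the slopes per dose step were compared. The difference of the slopes passed the test for 0 of 19046 genes (0%), and 526 genes, 1 of them a member, had an unadjusted p under 0.05 in this limma fit. That member was AREG, whose slope was 0.30 steeper for EEDS with a 95% interval from 0.11 to 0.49 (limma, unadjusted p = 0.00809, adjusted p = 1). For EGFR the slopes differed by 0.03 with an interval from -0.42 to 0.47, for EREG by 0.15 (-0.24 to 0.54) and for BTC by 0.14 (-0.47 to 0.75). HBEGF had the widest interval, from -0.02 to 1.46 about a difference of 0.72. These intervals leave room for differences as large as a good part of the slopes themselves.

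**Figure D3:**
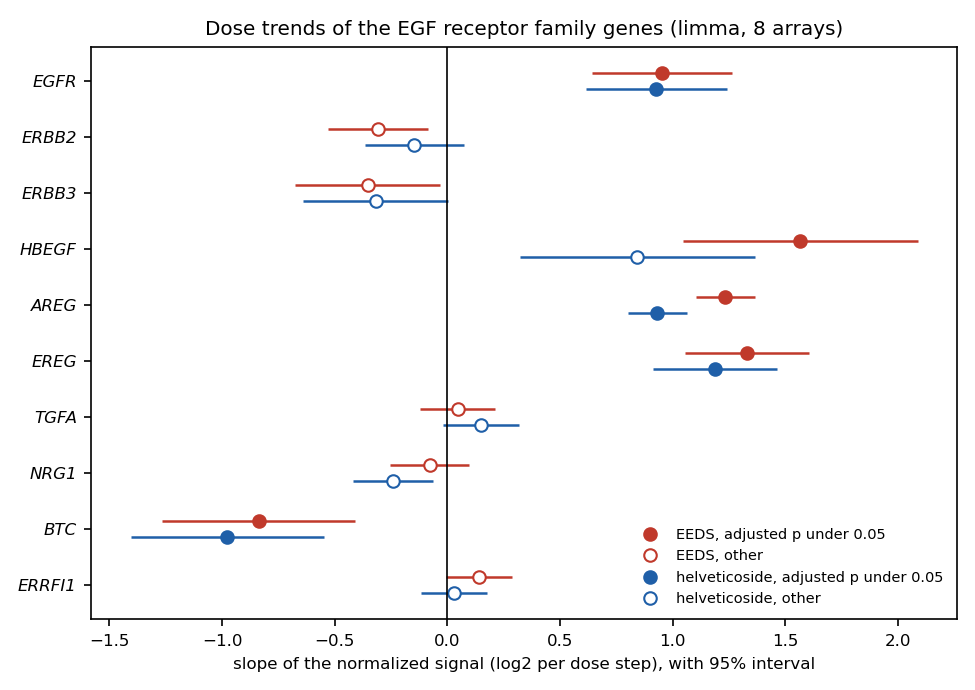
Slope of the normalized signal per dose step (x axis, log2 units) for each member (y axis) with EEDS (red) and helveticoside (blue); bars are 95% intervals from limma over 8 arrays and filled symbols have an adjusted p under 0.05. EGFR, AREG and EREG lie between 0.93 and 1.33 with both agents, the slopes of BTC lie below 0 but rest on values near background, and the intervals of TGFA include 0 for both agents.

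The rest of the pathway was read from gene lists by role, and each list is a description without a test of its own. The shares of all genes given beside the members and the lists take in genes in the background. Most of the listed genes were above it, among them all 11 shedding genes and all 16 ERK-responsive transcripts on every array. Fitted alone, the 11494 genes well above background on every array gave 1726 rising and 1874 falling with EEDS, and 1326 and 1447 with helveticoside. The main fit of 19046 genes gave 1385 and 1504, and 1043 and 1110, so its shares are low for well-measured genes. Of 6 other receptors and ligands of the family (ERBB4, EGF, EPGN, NRG2, NRG3 and NRG4), NRG4 alone was well above background on all arrays, with log2 ratios of -0.32 at 20 μg/mL and -0.48 at 60 nM, and none passed the trend test. The signal of NRG2 gave -2.56 and -2.57 at the top doses, but it was well above background on 6 of the 8 arrays only, and it is named after its values were seen.

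Of 11 genes for the shedding and processing of ligands, 5 stood over 2-fold above the control at each top dose and none below, where 13.4% and 10.9% of all genes were higher. By the trend test 4 rose with EEDS and 3 with helveticoside, and none fell, where 7.27% and 5.48% of all genes rose. The median log2 ratio of the list was 0.93 and 0.72 at the top doses, where it was 0.02 and -0.00 over all genes tested. RHBDF1, an inactive rhomboid that assists the transport of ADAM17, had log2 ratios of 2.38 and 1.95 and rose with both agents (adjusted p = 0.0289 and 0.0384). ADAM17, the main protease for AREG, EREG, HBEGF and TGFA, had 1.53 and 1.06 and rose with EEDS (adjusted p = 0.0345, and 0.0754 for helveticoside). ADAM10, the protease for BTC and EGF, had 1.11 and 1.07 and rose with both (adjusted p = 0.0415 and 0.0427). A second ADAM10 probe, also well above background on every array, gave 1.02 and 0.86, the latter short of 2-fold. TIMP3, an inhibitor of ADAM17 and so opposite in role to the proteases, had 1.18 and 1.38 and rose with both (adjusted p = 0.0191 and 0.0202). The fifth gene past 2-fold was ADAM9 with EEDS (1.03) and ADAM19 with helveticoside (1.4), both named after their values were seen and without a trend that passed the test.

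The 31 adaptors and kinases of the RAS-ERK and PI3-kinase cascades had no common direction. At 20 μg/mL 5 stood over 2-fold above and 4 below the control, at 60 nM 3 and 3, and the medians were 0.24 and 0.02. The shares of all genes were 13.4% above and 14.6% below at 20 μg/mL, and 10.9% and 12.9% at 60 nM. By the trend test 4 rose and 4 fell with EEDS, and 2 rose and 3 fell with helveticoside, where 7.27% and 7.9%, and 5.48% and 5.83%, of all genes did. NRAS, a RAS GTPase, had log2 ratios of 1.90 and 1.63 and rose with both agents (adjusted p = 0.0130 and 0.0167), as did MAP2K1, the kinase above ERK, with 1.14 and 1.29 (adjusted p = 0.0164 and 0.0179). PIK3R2, a regulatory subunit of PI3-kinase, had -2.30 and -2.09 and fell with both (adjusted p = 0.0217 and 0.0306), as did PLCG1, a phospholipase that docks on EGFR, with -1.08 and -1.01 (adjusted p = 0.0314 and 0.0400). The adaptor CRK had 1.43 and 1.15 without passing the test (adjusted p = 0.0527 and 0.0888). Named after their values were seen, the others past 2-fold were PIK3CA (1.03) and STAT3 (1.12), higher with EEDS, GAB2 (-2.02) and PIK3R1 (-1.08), lower with EEDS, and EPS8 (-1.23), lower with helveticoside. PTPN11 and NCK1 also rose with EEDS, GAB2 also fell with EEDS, and EPS8 fell with both agents by the trend test.

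Of 18 genes that remove, ubiquitinate or dephosphorylate the receptors, 5 were more than 2-fold higher at each top dose and none was lower, with medians of 0.23 and 0.38, where 13.4% and 10.9% of all genes were higher. By the trend test 4 rose with EEDS and 5 with helveticoside, against 7.27% and 5.48% of all genes. CBL, the ubiquitin ligase of activated EGFR, had 1.62 and 1.69 (adjusted p = 0.0228 and 0.0264). RNF41, a ubiquitin ligase of ERBB3, had 1.13 and 1.59 (adjusted p = 0.0403 and 0.0273). STAM, which sorts ubiquitinated receptors in the endosome, had 1.81 and 1.48 (adjusted p = 0.0290 and 0.0467), and LRIG2, a membrane protein of a family that regulates these receptors, had 1.45 and 1.26 (adjusted p = 0.0168 and 0.0253). PTPRK, a phosphatase that acts on EGFR, had 1.05 and 1.13 (adjusted p = 0.0504 and 0.0385), while another probe of it gave 0.54 and 0.56.

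Of 16 transcripts known to follow ERK activity, 10 were more than 2-fold higher at each top dose and none was lower, with medians of 1.51 and 1.33, where 13.4% and 10.9% of all genes were higher. By the trend test 7 rose with EEDS and 6 of these with helveticoside, without EGR1, against 7.27% and 5.48% of all genes. EGR1, an immediate early transcription factor, had log2 ratios of 9.94 and 7.68 (adjusted p = 0.0255 and 0.0562). FOS, a part of the AP-1 factor, had 5.12 and 2.58 but did not follow the dose step evenly (adjusted p = 0.111 and 0.477), while FOSL1, from the same family, had 4.51 and 3.98 and rose with both agents (adjusted p = 0.0141 and 0.0199). The ERK phosphatases DUSP6, with 2.41 and 1.84, and DUSP5, with 1.98 and 1.85, rose with both agents. IER3, a stress-induced gene, had 1.99 and 1.57 and PHLDA1, an early response gene, had 1.65 and 1.59, and both rose with both agents. The feedback inhibitor SPRY4 had 2.38 and 2.11, but a second probe gave 0.62 and 0.11. SPRY2, with 1.38 and 1.03, and the cyclin gene CCND1, with 1.07 and 1.10, were past 2-fold without passing the test. The rest of the list, DUSP4, SPRED1, SPRED2, ETV4, ETV5 and MYC, stayed within 2-fold at both top doses and is named after its values were seen. Their log2 ratios ran from -0.62 for ETV4 to 0.86 for MYC with EEDS. With helveticoside they ran from -0.81 for SPRED1 to 0.82 for ETV5.

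**Figure D4:**
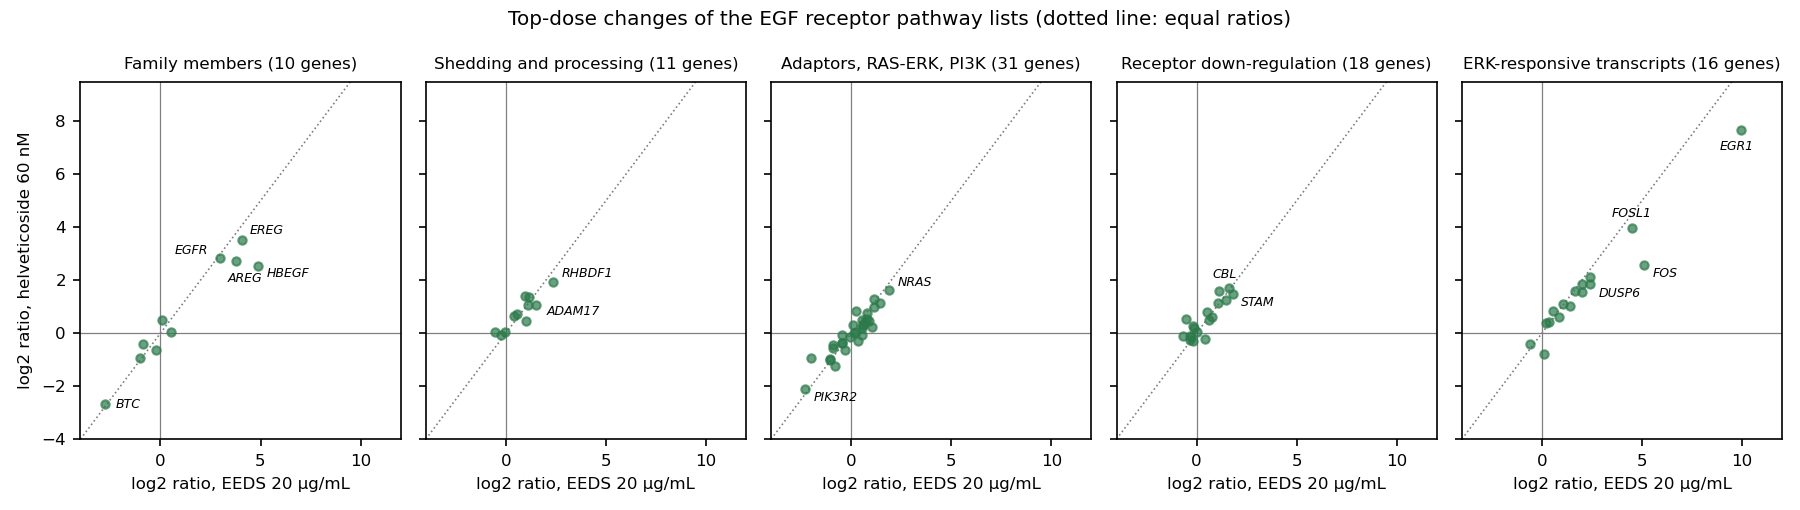
Log2 ratio to the vehicle control at 60 nM helveticoside (y axis) against that at 20 μg/mL EEDS (x axis) for the genes of 5 lists, 1 point per gene, with equal ratios on the dotted line. The 31 adaptors and kinases spread to both sides of 0, whereas 10 of the 16 ERK-responsive transcripts lie above 1 on both axes.

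Of the 5 epithelial markers, 4 fell with EEDS and 3 with helveticoside by the trend test, where 7.9% and 5.83% of all genes fell, and the list had medians of -0.78 and -0.74. These were KRT8, KRT18, KRT19 and CDH1 with EEDS, and without KRT8 with helveticoside. EPCAM had log2 ratios of 0.05 and -0.26 at the top doses and did not pass the test (adjusted p = 0.996 and 0.418). CDH1, which encodes E-cadherin, had log2 ratios of -2.70 and -2.71, and KRT19, a keratin, -1.90 and -1.72.

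For EGFR, AREG and EREG, which were well above background on all arrays and past 2-fold at both top doses, the genes most like it were those with the smallest root mean square difference over the 6 log2 ratios, among genes well above background on all arrays. For EGFR these were DUSP1, a phosphatase of MAP kinases, at 0.178 log2 units, EFNA1, an ephrin ligand, at 0.212 and HAS2, a hyaluronan synthase, at 0.214. For AREG they were BBC3, a pro-apoptotic gene, at 0.154, JUN, a part of AP-1, at 0.189 and CREBRF at 0.209. For EREG they were IRAK2 at 0.331, BIRC3 at 0.359 and IL1RAP at 0.359, of which IRAK2 and IL1RAP belong to interleukin-1 signalling.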

How the data were processed

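For each of the 8 arrays, the authors deposited the intensity per spot from the scanner software (Agilent Feature Extraction, whose version is not given in the sources used here): a median signal, a local background, a background-subtracted processed signal, and flags for outliers, saturation and signal well above background. Their own processed intensity values, in a deposited table of all arrays, served as an alternative. The labels name no genome build.

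Control spots and the 246 to 331 outlier spots per array were removed. Processed signals were then averaged per probe, quantile-normalized across the arrays and log2-transformed. All spots of 22 of 34127 probes were outliers on an array, and these probes were left out. By transcript, 24812 probes matched a gene of RefSeq (GRCh38.p14), and the brightest probe on average stood for its gene. No probe spot was saturated. Straight lines, separate for each series, were fitted in R 4.3.3 with limma 3.58.1, using trend and robust moderation (statmod 1.5.0), with Benjamini-Hochberg adjustment and a threshold of 0.05. The code of the fit was also run on data simulated with straight-line slopes and independent noise. Such data cannot show how well the scatter about the lines stands in for replicates. The fit kept the 19046 genes whose median signal reached 1.4 times the local background on an array of each series, and signals short of this limit were raised to the smallest signal past it on the same array if they lay below that. Ratios, counts and sequences were computed with Python 3.11.15, numpy 2.4.6 and pandas 2.3.3.

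The genes named are the 10 members, the genes of each list that were well above background and more than 2-fold changed in the same direction at both top doses (or, in a list without any, the most changed among those well above background), and the 3 genes most like each changed member. No such genes are given for HBEGF and BTC, whose ratios rest on arrays in the background. The members, lists and tests were chosen with earlier results of these data known. The alternatives were other scalings, background corrections, probes, controls, fold thresholds, filters and subsets of the doses. The number of arrays limits the precision. The files carry no slide or scan batch, and no date was used.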

Additional observations from a re-analysis of the deposited data

How the results depend on the processing

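The counts of members more than 2-fold higher at the top doses stayed at 3 to 4 for EEDS and at 3 to 5 for helveticoside under the alternatives run. The count of 2 lower with EEDS at 20 μg/mL was 0 with the signal as scanned and with normexp, 1 with a 3-fold threshold and 1 when genes had to be well above background on every array. The count of 1 lower with helveticoside at 60 nM was 2 with 75th percentile scaling and with the mean of the probes, 3 with a 1.5-fold threshold, and 0 with the signal as scanned, with normexp, with the authors' processed values and when genes had to be well above background on every array. The counts of members with a rising trend (4 with EEDS, 3 with helveticoside) and with a falling trend (1 with each) were 0 without the lowest, the middle or the top dose of each series and with the 4 arrays of a series alone, fits in which fewer residual degrees of freedom remain and no gene passed. The falling count with EEDS was also 2 with 75th percentile scaling, 0 with the signal as scanned and 2 with the mean of the probes, it stayed at 1 with ERBB2 in place of BTC when genes had to be well above background on every array, and that with helveticoside was 2 with the mean of the probes and 0 when genes had to be well above background on every array, which leaves out BTC. The difference of the slopes passed the test for no gene under any alternative fitted to both series. The helveticoside slope of ERBB2 turned from -0.15 to 0.0016 without the top dose. Over the members, 134 of 160 top-dose ratios moved by less than the SD between the vehicle controls (0.481) and 26 by more, and of 216 slopes 174 kept their direction and their side of the threshold, 37 lost the call, 4 gained one and 1 turned. Where not stated above, the cause was not tested. After scaling to the 75th percentile, the median log2 ratio of all genes was -0.20, -0.21 and -0.36 at the EEDS doses. It was 0.14, -0.12 and -0.18 at the helveticoside doses, and members gave 4 higher and 2 lower at each top dose. The list medians at the top doses then were 0.77 and 0.84 for shedding, 0.25 and 0.48 for receptor down-regulation, 1.71 and 1.46 for the ERK-responsive transcripts and -0.96 and -0.51 for the epithelial markers. No paired analysis was possible because each group has 1 array and no replicate numbers pair the series. Leaving out a replicate was not possible with 1 array per dose. Dim signal limits HBEGF, BTC and an ERBB3 probe to bounds, or to folds from a dim array's own signal.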
